A study of Drosophila melanogaster with 2 samples.

Results

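Cytoplasmic ribosomal protein genes of Drosophila melanogaster were examined in a chromatin immunoprecipitation and sequencing (ChIP-seq) map of embryos that express a tagged form of Buttonless (btn), a homeodomain protein. The genes were the protein-coding genes of the Ensembl annotation whose symbol begins with RpL, RpS or RpLP and a number, with sta, which encodes a small subunit protein, added. There were 93 of them among 13968 protein-coding genes on the main chromosomes, 54 for the large subunit and 39 for the small subunit. The study had 1 group, transgenic whole embryos of mixed sex aged 0 to 14 h carrying btn fused at its C-terminus to enhanced green fluorescent protein, and chromatin sheared to 200 to 800 bp was recovered with an antibody against GFP. The group had 2 biological replicates, numbered 2 and 3 in the labels, which name a separate biosample for each. The labels do not say which promoter drives the fusion, whole embryos mix all cell types, and immunoprecipitates of untagged embryos were not analysed here, so binding by btn itself is not established.

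Ribosomal proteins join ribosomal RNA to form the large and the small subunit of the cytoplasmic ribosome, and their genes are among the most highly expressed of growing cells. In Drosophila many of them are Minute loci, at which loss of 1 gene copy gives short bristles and slow development. Many of their promoters lack the usual initiator and start transcription within a pyrimidine-rich element called TCT. The DNA replication-related element (DRE), bound by the factor Dref, and Motif 1, bound by M1BP, are further elements known from promoters of broadly expressed fly genes. Buttonless is known for its requirement in the dorsal median cells of the embryo, a small set of mesodermal cells.

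Promoter sequences show where the summits fell relative to these elements. Each run goes 5′ to 3′ on the gene's strand over 100 bp upstream to 20 bp downstream of the transcription start site (TSS) that most of the gene's transcripts share, in the RefSeq Release 6 genome (dm6). Capitals mark the words CTTT, the core of TCT, with its C within 5 bp of the TSS on the gene's strand; TATCGATA, the DRE; GGTCACAC, the core of Motif 1; TCAGT, the initiator, on the gene's strand; and TATAAA, the TATA box. All but the TCT core and the initiator were searched on both strands, so TTTATA also marks a TATA box. A match is a description of the letters and not of a bound site. The first 4 runs are from genes with strong peaks, RpS25 holds a DRE and a TCT core together, and RpLP1, a stalk protein gene, had only a weaker candidate region and no final peak.
RpS27, chr3R:25247494-25247614, minus strand: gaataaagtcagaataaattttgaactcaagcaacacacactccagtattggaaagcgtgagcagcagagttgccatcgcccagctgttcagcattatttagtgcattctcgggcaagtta
RpL13A, chr3R:5624374-5624494, plus strand: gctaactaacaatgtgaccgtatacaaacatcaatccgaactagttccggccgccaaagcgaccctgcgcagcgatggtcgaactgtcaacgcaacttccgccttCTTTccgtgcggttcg
RpL14, chr3L:8600906-8601026, plus strand: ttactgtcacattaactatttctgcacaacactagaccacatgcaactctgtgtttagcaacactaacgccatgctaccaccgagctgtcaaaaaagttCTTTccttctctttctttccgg
RpL23A, chr3L:1668634-1668754, minus strand: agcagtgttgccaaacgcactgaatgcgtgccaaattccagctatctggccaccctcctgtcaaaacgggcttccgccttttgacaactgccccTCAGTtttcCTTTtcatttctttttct
RpS25, chr3R:11216267-11216387, minus strand: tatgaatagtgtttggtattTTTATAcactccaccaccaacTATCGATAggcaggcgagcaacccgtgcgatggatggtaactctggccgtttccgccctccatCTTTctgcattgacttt
RpLP1, chr2L:419852-419972, plus strand: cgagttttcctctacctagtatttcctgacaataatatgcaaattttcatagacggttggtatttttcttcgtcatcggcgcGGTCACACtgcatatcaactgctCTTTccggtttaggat

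RpL13A, RpL14, RpL23A and RpS25 carry the TCT core at the start site. RpL23A also carries an initiator 6 bp upstream, and RpS27 holds none of the words in the printed run. In RpS25 the DRE begins 59 bp upstream of the TSS, and the summit lay 47 bp upstream. RpLP1 carries a Motif 1 core that begins 18 bp upstream and a TCT core, and its candidate region had a signal of 59.6 with the summit 52 bp upstream.

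Optimal peaks, the authors' reproducible set of 2153 regions, were the 2153 strongest of the 30000 candidate regions of the pooled replicates, and their deposited signal ran between 70.5 and 1220. Signal is the authors' own value per region, without a stated scale, and it serves for ranking within 1 list only. Depth per library is unknown, since no list gives read counts. The summit is the point the authors gave within each region. In 37 of the 52 optimal peaks of ribosomal protein genes the region was 410 bp wide, against 1821 of all 2153 optimal peaks. No p-value is given: genes and peaks are not biological replicates, and the design has no second group.

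Optimal peaks were frequent at the promoters of ribosomal protein genes. A TSS with an optimal summit no further than 1 kb away was found in 52 of the 93 genes (55.9%), against 10.8% of all protein-coding genes (1511 of 13968). Among the other protein-coding genes the share was 10.5% (1459 of 13875). When the distance allowed was 100 bp, 49 of the ribosomal protein genes kept a summit (52.7%), against 3.44% of all genes. At 2 kb the counts were 54 ribosomal protein genes (58.1%) and 13.7% of all genes. The share of ribosomal protein genes thus changed little over these distances while that of all genes rose.

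The replicates were compared through the 2153 strongest candidates of each, called strong candidates here. In replicate 2, 46 ribosomal protein genes had a strong candidate within 1 kb (49.5%), against 10.8% of all genes. In replicate 3 there were 55 (59.1%), against 11.2% of all genes. Both replicates had one at 42 ribosomal protein genes (45.2%), against 8.0% of all genes. The distance between ribosomal protein genes and all genes was larger in each replicate than the gap between the replicates. Another 13 genes had a strong candidate in replicate 3 only and 4 in replicate 2 only, and 34 had none in either. The matching counts over all genes were not computed, so these describe the ribosomal protein genes only. Of the 52 genes with an optimal peak, 42 were strong in both replicates, and none of the 41 genes without one was. The optimal list was itself derived from these replicates, so this overlap is not independent evidence for the peaks.

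**Figure D1:**
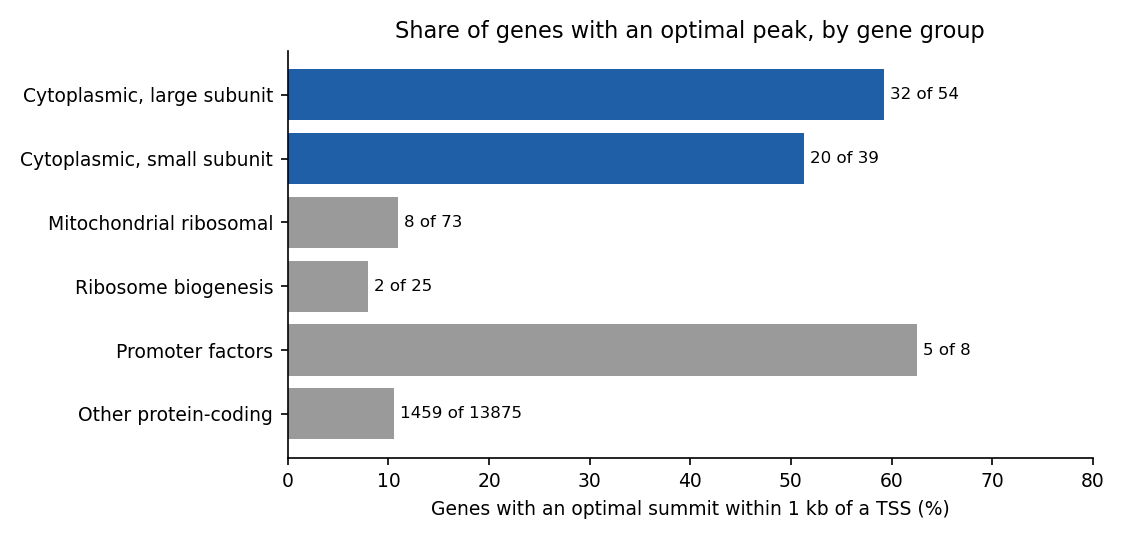
Percentage of genes with an optimal summit no further than 1 kb from a TSS, by gene group, with counts at the bar ends. The bars of the large subunit (32 of 54) and of the small subunit (20 of 39) are several times as long as those of mitochondrial ribosomal (8 of 73), ribosome biogenesis (2 of 25) and other protein-coding genes (1459 of 13875). The bar of promoter factors rests on 8 genes.

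Large subunit genes had an optimal summit in 32 of 54 cases (59.3%) and small subunit genes in 20 of 39 (51.3%). In replicate 2, strong candidates were found at 32 large subunit genes (59.3%) and 14 small subunit genes (35.9%). In replicate 3 they were found at 35 large subunit genes (64.8%) and 20 small subunit genes (51.3%). Both replicates had one at 31 large subunit genes (57.4%) and 11 small subunit genes (28.2%). The large subunit share was the higher in both replicates, and the size of the gap differed between them. Without duplicated and -like genes, 29 of 46 large subunit genes and 13 of 26 small subunit genes had an optimal peak.

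Median peak strength also differed by subunit, with overlapping spread. The median signal of the optimal peaks was 145 for the 32 large subunit genes and 99.8 for the 20 small subunit genes. Within the optimal list these medians corresponded to percentiles 73.4 and 45.5. The signal quartiles overlapped, at 103 and 197 for the large subunit genes and 84.6 and 172 for the small subunit genes. Over all 52 ribosomal protein genes the median signal was 130 (percentile 67.4), against 109 (percentile 54.1) for the other 1459 genes with an optimal summit. The top 25% of the optimal list by signal held the summit of 20 of the 52 ribosomal protein genes (38.5%), against 416 of the 1459 other genes (28.5%). Peaks of ribosomal protein genes were 2.42% of all 2153 optimal peaks, beside 2 of the 100 strongest, 19 of the 500 strongest and 32 of the 1000 strongest.

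**Figure D2:**
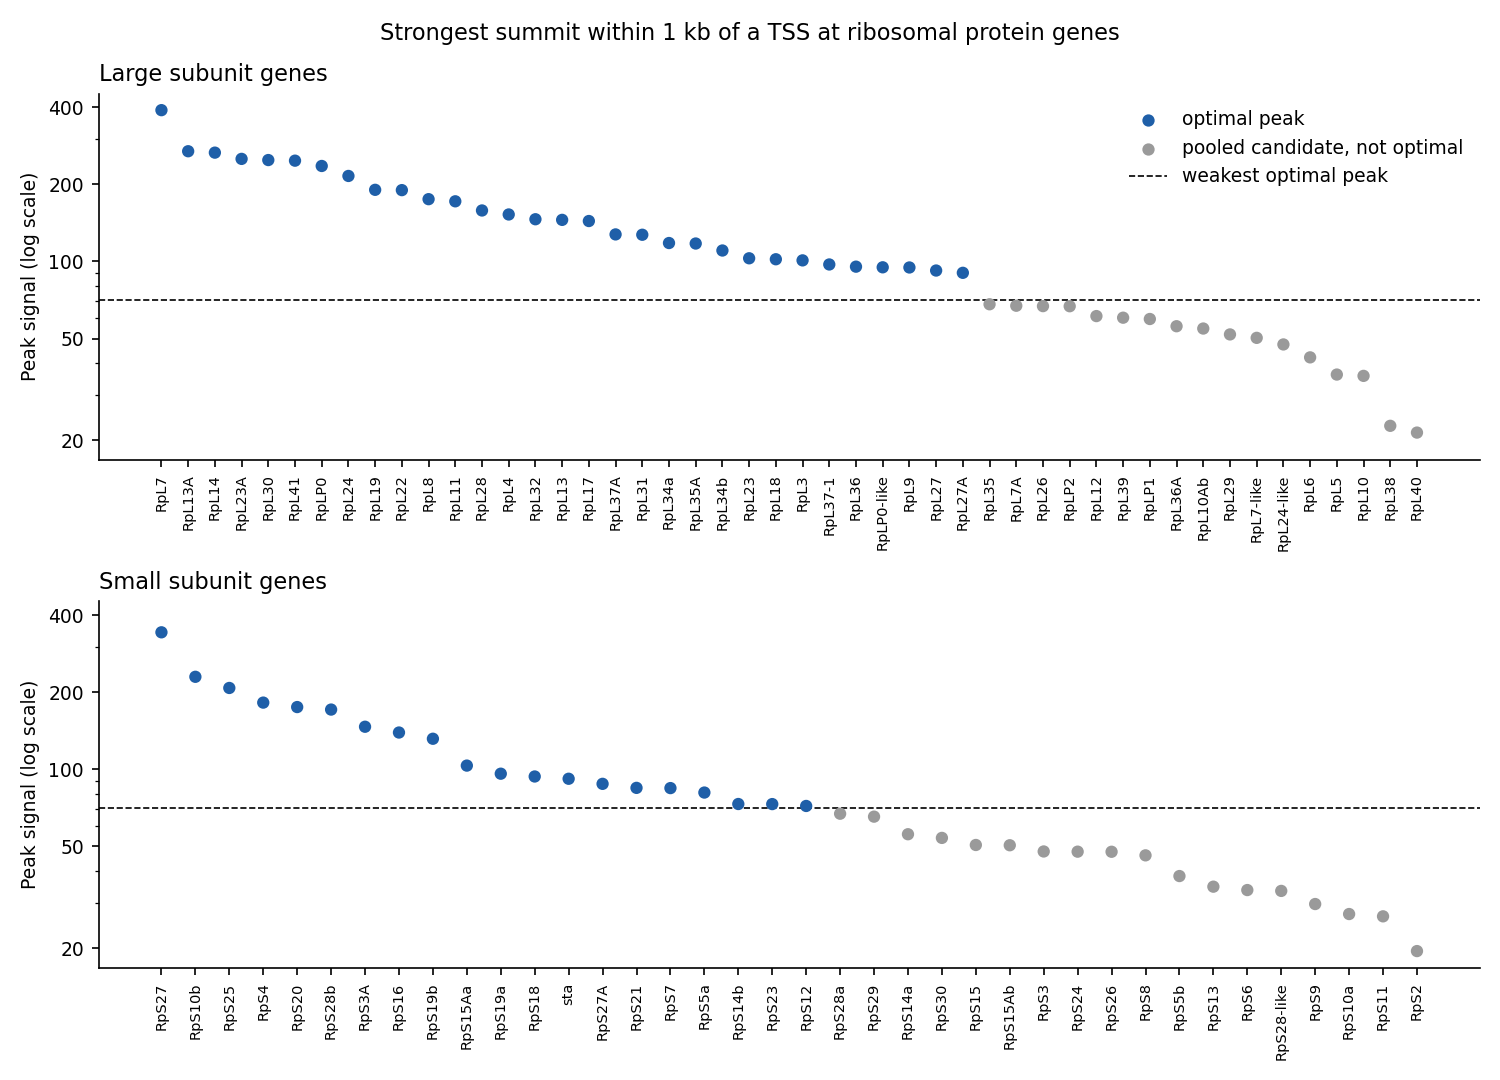
Signal of the strongest summit within 1 kb of a TSS (vertical axis, authors' signal, log scale) for 48 of the 49 large subunit genes (top) and 38 of the 39 small subunit genes (bottom) with a pooled candidate, in order of signal. Blue points are optimal peaks, grey points are pooled candidates that were not optimal, and the dashed line is the weakest optimal signal of the whole list, 70.5. RpL7 (390) and RpS27 (343) stand highest, and 35 of the 86 points lie below the line.

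Distances of summits to the TSS, here and below, are to the nearest TSS of the gene. That is not always the TSS that most of its transcripts share. Among large subunit genes, RpL7 had the strongest peak (chr2L:10200917-10201159, signal 390), with the summit in the 5′ UTR 45 bp downstream of the TSS. It ranked 70 among the candidates of replicate 2 and 53 among those of replicate 3. RpL13A (chr3R:5624334-5624509, signal 269) had its summit 55 bp upstream and ranked 241 in replicate 2 and 102 in replicate 3. RpL14 (chr3L:8600881-8601071, signal 266), a known Minute gene, had its summit 23 bp upstream and ranked 178 in replicate 2 and 108 in replicate 3. These 3 genes ranked higher in replicate 3 than in replicate 2.

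RpL23A (chr3L:1668644-1668843, signal 251) had its summit 71 bp upstream and ranked 149 in replicate 2 and 212 in replicate 3. RpL30 (chr2L:19009091-19009500, signal 249) had its summit 10 bp downstream of its nearest TSS and ranked 198 in replicate 2 and 120 in replicate 3. RpL41, which encodes a very short protein, had a peak of signal 247 (chr2R:24903910-24904077) that ranked 143 in replicate 2 and 248 in replicate 3. Its summit lay 93 bp upstream of the RpL41 TSS and in an intron. RpLP0, the stalk protein that anchors the P1 and P2 proteins, had a summit 2 bp upstream of a TSS (chr3L:22075990-22076107, signal 236) and ranked 251 in replicate 2 and 156 in replicate 3. RpL24 (chr2L:13395058-13395223, signal 216) had its summit 19 bp downstream and ranked 445 in replicate 2 and 129 in replicate 3. All 8 of these summits lay within 100 bp of a TSS of their gene, and the ranks of RpL24 differed the most between replicates.

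Among small subunit genes, RpS27 had the strongest peak (chr3R:25247382-25247677, signal 343), with its summit 7 bp downstream of the TSS; it ranked 115 in replicate 2 and 63 in replicate 3. RpS10b (chrX:19597943-19598095, signal 230) had its summit 27 bp upstream and ranked 305 in replicate 2 and 151 in replicate 3. RpS25 (chr3R:11216280-11216391, signal 208) ranked 182 in replicate 2 and 404 in replicate 3, the reverse order of RpS27 and RpS10b. The next were RpS4 (signal 182, 8 bp upstream), RpS20 (signal 175, 153 bp upstream), RpS28b (signal 171, 10 bp upstream), RpS3A on chromosome 4 (signal 147, 26 bp upstream) and RpS16 (signal 139, 37 bp upstream). Only RpS20 among these 8 had its summit more than 100 bp from a TSS.

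The weakest optimal peaks were all at small subunit genes. RpS12 had a signal of 71.96, RpS23 of 73.2, RpS14b of 73.2 and RpS5a of 81.2, each with its summit within 100 bp of a TSS. RpS14b ranked 5153 in replicate 2 and 1215 in replicate 3, so the support for this peak was uneven. The peak of sta, the Drosophila ortholog of the laminin receptor protein RPSA, had a signal of 91.9 with the summit 12 bp upstream of the TSS; it ranked 3948 in replicate 2 and 624 in replicate 3. RpL36, another Minute gene, had a signal of 95.4 (20 bp downstream of its nearest TSS), with rank 989 in replicate 2 and 1895 in replicate 3. RpS27A, whose protein is made as a fusion to ubiquitin, had a signal of 87.8, with rank 2350 in replicate 2 and 1213 in replicate 3.

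Across the 52 genes the median rank was 904.5 in replicate 2 and 587.5 in replicate 3, and 36 of them ranked higher in replicate 3. Whether other genes with an optimal peak lean the same way was not computed. Both ranks are positions among 30000 candidates. Spearman's rho between the ranks was 0.797 over the 52 genes, a description across genes that share both libraries. Summits of the 2 replicates at the same gene differed by a median of 18.5 bp, against 27 bp for 1060 other promoter peaks. They were within 20 bp of each other at 27 genes and over 100 bp apart at 2.

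**Figure D3:**
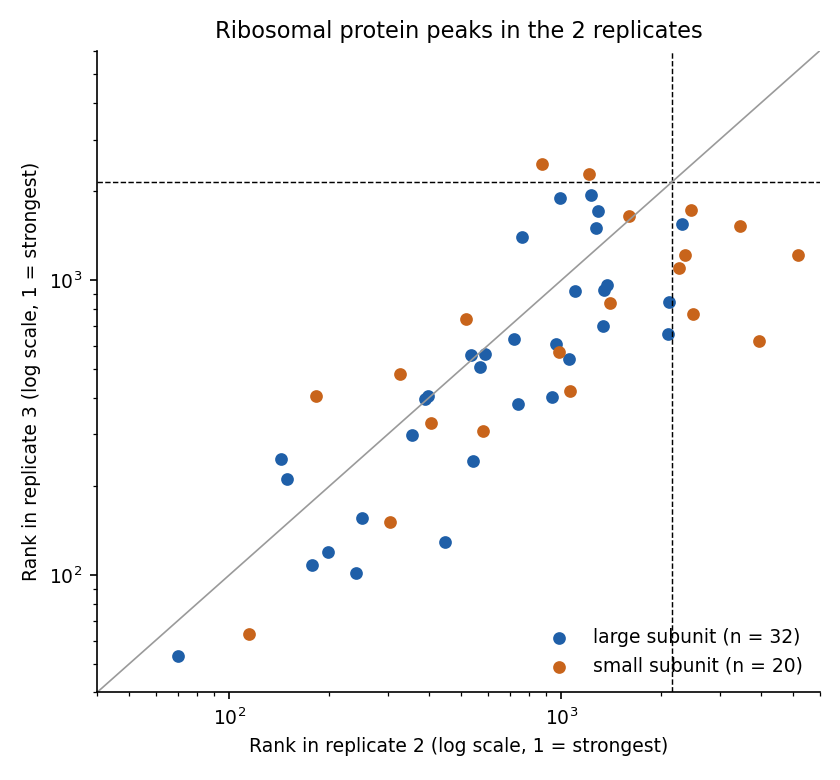
Rank of the candidate at each of the 52 ribosomal protein genes with an optimal peak in replicate 2 (horizontal) and replicate 3 (vertical), both on log scales where 1 is the strongest. Dashed lines mark rank 2153, the grey line marks equal rank, and 36 points lie below it, ranking higher in replicate 3. Points right of the vertical dashed line, mostly small subunit genes, were strong in replicate 3 only.

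Summits at ribosomal protein genes lay close to the start site. Offsets are given in bp on the gene's strand, negative upstream. The median offset was -15.5 bp (quartiles -47.25 and 7.25), against -143 bp (quartiles -302 and -33.5) at the other 1459 genes. Without sign, the median distance was 28.5 bp at ribosomal protein genes and 188 bp at the others. A summit within 25 bp of the TSS was found at 23 of 52 ribosomal protein genes (44.2%), against 98 of 1459 others (6.72%). Within 50 bp there were 39 of 52, against 188 of the 1459 others (12.9%), and within 100 bp 49 of 52 (94.2%), against 26.9% of the others. The distance was counted to the nearest TSS of the gene, and the strongest summit was used where a gene had more than 1, which was so at 2 of the 52 genes.

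Part of the other genes share a summit that is nearer to a neighbour. Among genes that were the nearest to their summit, the median distance was 26 bp at 47 ribosomal protein genes and 153 bp at 1016 others. The difference in position was also present on each strand. Plus-strand ribosomal protein genes had a median offset of -12 (23 genes), against -132 for others, and minus-strand ones had -26 (29 genes), against -152 for others. Over the 52 genes, the replicates' own summits had a median offset of -24.5 in replicate 2 and -10 in replicate 3. Among the strong candidates of replicate 2, the median distance without sign was 31.5 bp at 46 ribosomal protein genes and 186 bp at 1461 others. Among those of replicate 3 it was 25 bp at 55 ribosomal protein genes and 191 bp at 1508 others, so each replicate alone showed the difference.

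Upstream summits were less frequent at ribosomal protein genes, with 36 of 52 (69.2%), against 1171 of 1459 others (80.3%). By annotation 28 summits were intergenic, 21 were in a 5′ UTR, 2 in an intron and 1 in a noncoding exon, and none was in a coding exon or a 3′ UTR. Large subunit genes had a median offset of -20.5 and small subunit genes of -11, close to each other beside the quartiles. The exception in position was RpS19b, a duplicate of RpS19a, whose summit lay 883 bp upstream in an intron and 501 bp downstream of the TSS of CG5854. It was the member closest to the limit of 1 kb from inside. RpS14a was the closest from outside, with its nearest optimal summit 1121 bp away, followed by RpS13 at 1976 bp and RpLP2 at 2024 bp.

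**Figure D4:**
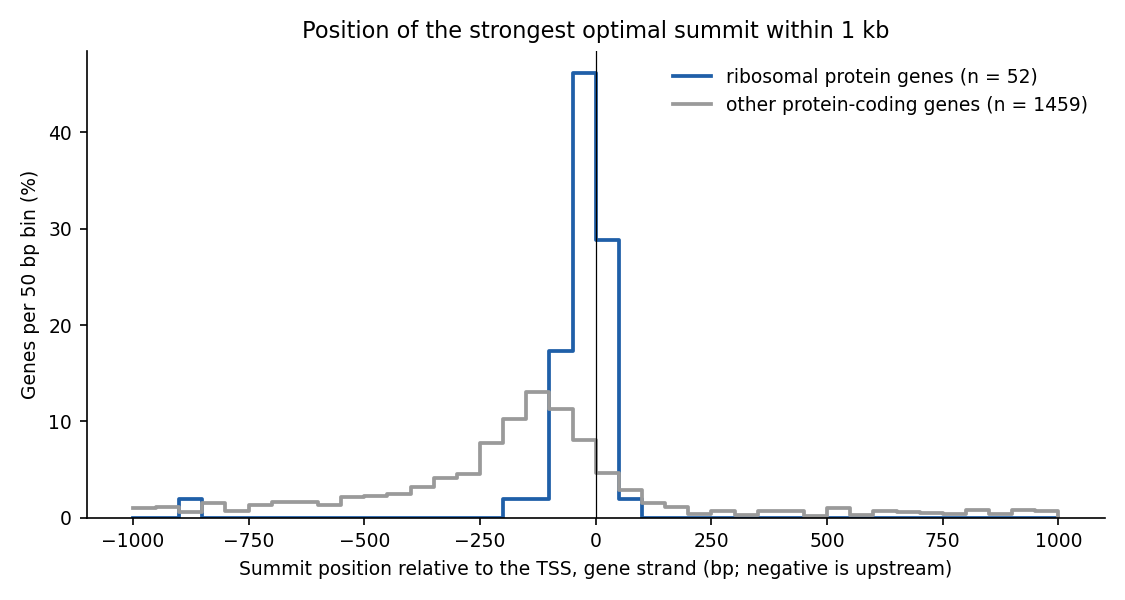
Position of the strongest optimal summit relative to the TSS (horizontal axis, bp on the gene's strand, negative is upstream) as a percentage of genes per 50 bp bin, for 52 ribosomal protein genes (blue) and 1459 other protein-coding genes (grey). The blue line is concentrated around 0, with a median of -15.5, and the grey line peaks further upstream, with a median of -143. The lone blue bin far upstream is RpS19b.

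Of the 41 genes without an optimal peak, 36 had a weaker pooled candidate within 1 kb. In all, 88 of the 93 genes had a pooled candidate (94.6%), against 62% of all protein-coding genes. All 39 small subunit genes had one, and 49 of the 54 large subunit genes did. The 36 weaker candidates had a median signal of 49.0 and a median distance to the TSS of 78.5 bp, against 32.7 and 320 bp for 7115 other genes with only such a candidate. Their summit was within 100 bp of the TSS at 20 genes and beyond 200 bp at 13, so the placement was more varied than for optimal peaks.

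Several of these candidates were just under the weakest optimal peak. RpL35 had a signal of 68.0 (17 bp upstream of the TSS), RpL7A 67.1 (20 bp downstream), RpS28a 67.1 (485 bp downstream), RpL26 66.9 (88 bp downstream) and RpLP2, a stalk protein, 66.8 (269 bp downstream). RpL7A, RpS28a, RpL26 and RpL7-like were among those with a strong candidate in replicate 3 only, and RpLP2 and RpS26 in replicate 2 only. RpL35 was strong in neither.

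Several well-known members were much weaker. RpS3, which also has a known role in DNA repair, had its strongest candidate 708 bp downstream of the TSS with a signal of 47.8. RpS13, a Minute gene, had 34.8 at 46 bp downstream, and RpS6, the target of S6 kinase, had 33.8 at 422 bp downstream. RpL40, the other ubiquitin fusion, had 21.5 at 272 bp downstream, and RpS2 had the lowest value, 19.5 at 277 bp downstream. No pooled candidate lay within 1 kb of RpL10Aa, RpL15, RpL21, RpL22-like or RpL37-2, although RpL15 had a candidate in replicate 3. RpL15 and RpL21 lay over 200 kb from any optimal summit, as did RpL10, RpL38 and RpL5.

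Duplicated genes were also counted by family, without a comparison with other gene families. Genes whose symbol ends in the small letter a or b or in -like had an optimal peak in 10 of 21 cases (47.6%), against 42 of 72 for the remaining members (58.3%). That count leaves RpL37-1 and RpL37-2, which are numbered, among the remaining members, while the families below include them. Of 13 families with more than 1 gene, 12 had a peak at 1 or more genes and 9 at exactly 1. RpL7 (390) and RpL24 (216) had an optimal peak while RpL7-like (50.3) and RpL24-like (47.4) had only candidates. RpL22 (190) and RpL37-1 (97.3) had one while RpL22-like and RpL37-2 had no candidate. RpS10b (230), RpS28b (171), RpS15Aa (103), RpS5a (81.2) and RpS14b (73.2) were likewise the only genes of their families with an optimal peak. Their partners RpS10a (27.2), RpS15Ab (50.5), RpS5b (38.3), RpS14a (55.8), RpS28a and RpS28-like (33.5) had weaker candidates.

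Every gene of 3 families had an optimal peak, namely RpL34a (118) and RpL34b (110), RpLP0 (236) and RpLP0-like (94.9), and RpS19a (96.2) and RpS19b (132). The summits of RpL34a, RpLP0-like and RpS19b, however, lay nearer to a TSS of a neighbour: Trmt61, 14-3-3zeta and CG5854, in that order. Neither RpL10Aa nor RpL10Ab (54.7) had one. Near-identical copies can share reads, and the sources used here do not say how such reads were placed.

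By chromosome arm, an optimal peak was found at 11 of 15 genes on X (73.3%), 8 of 14 on 3L, 13 of 23 on 3R, 10 of 21 on 2R, 9 of 19 on 2L and 1 of 1 on chromosome 4. Among all protein-coding genes on X the share was 10.3%. Genes that host a small nucleolar RNA gene were 19 of the 52 with an optimal peak (36.5%) and 10 of the 41 without (24.4%). Shares over all protein-coding genes were not computed for such hosts or for the arms other than X, so no link is drawn from these counts.

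Many of these promoters face another gene. The optimal summit was also within 1 kb of a TSS of another protein-coding gene at 36 of the 52 ribosomal protein genes (69.2%), against 812 of 1459 others (55.7%). At 35 of them a neighbour lay head to head, on the other strand and transcribed away. The starts of such pairs, taken as the TSS of each gene nearest to the summit, were 30 to 916 bp apart with a median of 321 bp. By this measure 27 of the 35 were within 500 bp. Where a gene has several TSSs, another of them can lie closer to the neighbour. How often the other 1459 genes have a head-to-head neighbour was not computed, so an excess of such pairs is not shown. The excess of sharing over other genes depended on the distance allowed. Within 2 kb, 45 of 54 ribosomal protein genes shared a summit (83.3%), against 66.8% of others. Within 500 bp the shares were 51% of ribosomal protein genes and 52.3% of others, within 200 bp 21.6% of ribosomal protein genes and 41% of others, and within 100 bp 12.2% of ribosomal protein genes (6 of 49) and 22.3% of others. None of the 38 neighbour genes was itself a ribosomal protein gene.

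RpL7 and Ripalpha, whose protein binds replication protein A, start 30 bp apart. RpS27 and Nup37, a nuclear pore protein gene, start 144 bp apart. RpL13A lies 349 bp from Dph4 and Spec2, RpL14 127 bp from Nelf-E (a subunit of the negative elongation factor) and RpL41 182 bp from NaCP60E (a sodium channel gene). For RpLP0 and CG7130 the distance was 336 bp, counted from the RpLP0 TSS nearest to the summit. The other RpLP0 TSS lies upstream of that one and closer to CG7130. RpL13 starts 84 bp from Dref, and their shared summit (signal 145) lay 29 bp upstream of RpL13 and 55 bp upstream of Dref. With the TSS nearest to the summit as each gene's start, the summit was between the 2 starts in 22 of the 35 pairs. Among these are RpLP0, RpS16 and sta, whose summits were in a 5′ UTR, downstream of another TSS of the same gene. This count was not made for other genes. The ribosomal protein gene had the nearest TSS at 31 of the 36 shared summits and at 47 of all 52 (90.4%), against 1016 of 1459 others (69.6%). The 5 exceptions were RpL41, RpL34a, RpLP0-like, RpS19b and RpS27A. The TSS of RpS27A coincides with that of Ip259, so these genes were equally near, and the tie was counted for Ip259. Which gene of a pair a shared peak belongs to cannot be told apart from summit positions.

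Promoter words other than the TCT core were counted anywhere between 100 bp upstream and 50 bp downstream of the TSS that most transcripts share. The TCT core was counted only with its C within 5 bp of that TSS. Its shares are therefore not measured over the same window as those of the initiator, which could lie anywhere in the longer one. Both strands were searched except for the TCT core and the initiator. The TCT core was present at 44 of 93 ribosomal protein genes (47.3%), against 5.63% of all protein-coding genes. It was about as frequent in genes with an optimal peak (25 of 52, 48.1%) as in those without (19 of 41, 46.3%). The DRE was present at 14 of 52 with a peak (26.9%) and 12 of 41 without (29.3%), against 7.53% of all genes. The Motif 1 core was found in 5 of 52 (9.62%) and 6 of 41 (14.6%), against 6.67% of all genes. TCT core and DRE were thus several times as frequent at ribosomal protein genes as at all genes, and their shares with and without an optimal peak were close. At least 1 of the 3 was present at 64 of the 93 genes, and TCT core and DRE occurred together at 12. For these combined counts no share over all genes was computed, and whether the words occur together more than separately expected was not tested.

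Other words had lower shares at ribosomal protein genes than at all genes. The initiator was present at 4 of 52 with a peak (7.69%) and 2 of 41 without (4.88%), against 28.6% of all genes. TATAAA was found in 13.5% and 7.32%, against 23.8% of all genes, but the share with a peak was close to the 13.7% of the 1459 other genes with an optimal summit. GAGAG, a repeat bound by GAGA factor, was found in 9.62% and 4.88%, against 18.5% of all genes; at RpL4 and RpL40 it overlaps the TCT core. TAATTA, a core of homeodomain sites, was found in 2 of 52 ribosomal protein genes with a peak (3.85%) and 2 of 41 without (4.88%), against 6.79% of all genes. These counts are small, and the shares were close to the 5.41% of the 1459 other genes with an optimal summit. GC content of the same window was 45.9% ± 5.66 (SD, 52 genes) with a peak and 40.6% ± 6.03 (SD, 41 genes) without, against 42.0% ± 8.46 over all genes. Its part in the results was not tested.

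**Figure D5:**
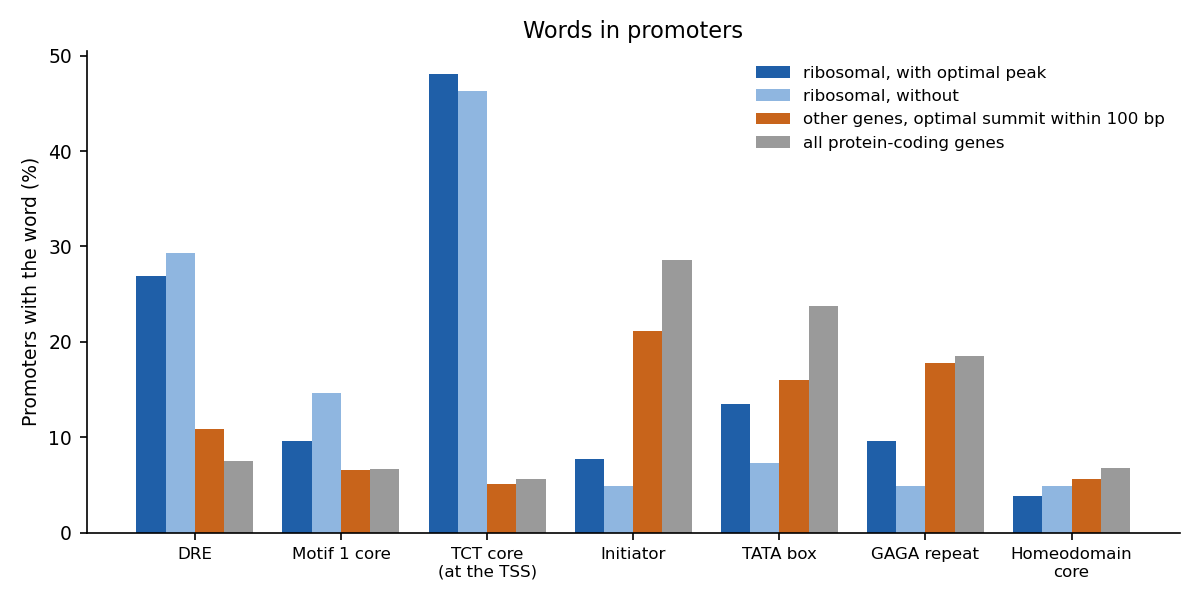
Percentage of promoters with each word (vertical axis) for ribosomal protein genes with an optimal peak (n = 52), ribosomal protein genes without (n = 41), 393 other genes with an optimal summit within 100 bp of a TSS, and all 13968 protein-coding genes. The TCT core stands at 48.1% and 46.3% in the ribosomal protein genes and at 5.09% and 5.63% in the other groups, while the initiator and the GAGA repeat are lower in the ribosomal protein genes.

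Around the summit itself, the words were counted within 100 bp on either side and set beside 383 other optimal peaks with a summit within 100 bp of a TSS. The DRE was found at 12 of the 52 ribosomal protein peaks (23.1%), against 9.66% of those 383 peaks and 2.83% of all optimal peaks. TAATTA was found at 3 of 52 (5.77%), against 11.2% of the 383 peaks and 12.9% of all optimal peaks. GAGAG was found at 2 of 52 (3.85%), against 23.2% of the 383 peaks and 27.6% of all optimal peaks. The homeodomain core was therefore not more frequent at ribosomal protein peaks than at other optimal peaks. The median distance of the summit to the DRE was 35 bp at the 14 genes with both, and to the TCT core 42 bp at 25 genes.

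Other genes of the ribosome were set beside these. Mitochondrial ribosomal protein genes had an optimal summit within 1 kb in 8 of 73 cases (11.0%), close to 10.8% of all genes. Their strongest peaks were at mRpS23 (704, offset -381 bp), mRpS10 (655, -132 bp), mRpL41 (556, -141 bp) and mRpL23 (340, 65 bp). The first 3 exceed the strongest peak of any cytoplasmic ribosomal protein gene, but their summits lay over 100 bp from the TSS. How many of these summits are nearer to a neighbouring gene was not counted. Ribosome biogenesis genes had 2 of 25 (8.0%): eIF6, which keeps the subunits apart (389, offset -123 bp), and Ns2 (257, offset -135 bp). Rack1, a protein of the small subunit whose symbol falls outside the rule, had a peak of 126 with its summit 5 bp upstream of the TSS. Among 8 genes of promoter-binding factors, 5 had an optimal summit: Chro (868), Trl (146), Dref (145, the summit shared with RpL13), Cp190 (89.8) and BEAF-32 (81.3).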

How the data were processed

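ChIP-seq with an antibody against GFP was done on whole embryos of 1 group, in biological replicates 2 and 3, per the labels. Each of 4 deposited dm6 lists was used: candidates of each replicate and of the pool, and the authors' optimal peaks. Signal is a column deposited by the authors and served only for ranking within 1 list. The summit is another deposited column, of unit other: the number of bases between region start and summit. In 1 pooled region it lies outside the region and was used as given. The sources used here do not give the aligner, the caller, their versions or the reproducibility threshold, and depth is unknown.

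Summits (1-based) were assigned to every gene with a TSS within 1 kb, using Ensembl release 115 (BDGP 6.54), whose coordinates lie on the same assembly as the lists; 99.9% of annotated start codons read ATG in the RefSeq Release 6 sequence. Each replicate was used at its 2153 strongest candidates. Counts and medians were set beside those of all protein-coding genes, with Python 3.11.15, pandas 2.3.3, numpy 2.4.6, scipy 1.17.1 and matplotlib 3.10.9. The counting was first tested on simulated data, with summits planted at isolated genes and 1 TSS per gene. Shared summits and genes with several TSSs were not covered by that test. Genes described with values were the 8 strongest per subunit, the 4 weakest, the 6 strongest without an optimal peak, those with no candidate, the 6 strongest shared, those over 300 bp away, duplicates and 10 with known roles; for the other lists, the 4 strongest. Some of these are not reported here. RpS2, RpS26, RpL13 with Dref, RpLP1, RpLP2, RpL5, RpL38 and RpL10 were named beside these after their values were seen. Members, gene lists and words were chosen with earlier results of these data known. Alternatives were other distances, each replicate alone, the upper part of the list, 1 TSS per gene, the nearest gene only, region overlap, and leaving out duplicates. The lists in build dm3 were not used.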

Additional observations from a re-analysis of the deposited data

How the results depend on the processing

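The count of ribosomal protein genes with an optimal summit, 52, was between 42 and 55 under 11 of 12 alternatives, and 32 when only the upper part of the optimal list by signal was used, which holds fewer peaks. With a single replicate it was 46 to 55. The large subunit count was 32 to 35 with a single replicate and 23 with the upper part of the list. The small subunit count was 14 to 20 with a single replicate, 9 with the upper part and 13 without duplicated and -like genes, which leave fewer genes. The median distance of 28.5 bp was 25 to 31.5 bp with a single replicate, 36 bp with the most upstream TSS only and 22 bp without duplicates. The signed median was -27 to -11 bp with a single replicate. The median percentile was 66.0 to 71.0 with a single replicate, 71.7 with the nearest gene only and 73.4 without duplicates. Shared summits were 32 to 39 with a single replicate, 6 within 100 bp, 11 within 200 bp and 22 with the upper part of the list. The share of genes with a summit and the median percentile were higher than at the other protein-coding genes, and the median distance was shorter, under each of the 10 alternatives in which both were computed. Sharing was not: it was below the 22.3%, 41% and 52.3% of other genes within 100, 200 and 500 bp.

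The values of other genes under the alternatives were added after seeing the data, as were the most upstream TSS for words, where the TCT core was found at 31 genes in place of 44 (33.3%, against 5.63% of all genes), and other lists within 100 bp, where mitochondrial ribosomal genes had 2, biogenesis genes 0 and promoter factors 3. In replicate 3 alone 4 biogenesis genes had a strong candidate. No paired analysis was possible because the study has 1 group. Depth is unknown, 2 replicates give little measure of spread, and untagged embryos were not analysed here. For regions 410 bp wide the summit is the region's midpoint, which limits its precision.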
